A study of Schizosaccharomyces pombe with 16 samples.

Results

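The genes described here are the fission yeast genes that carry the names mug or meu followed by a number. They were taken from the array platform's probe-to-gene table by symbol alone, with no measured value, and meu13 was left out. The rule found 133 probe sets for 133 genes, 115 named mug and 18 named meu, of 4999 probe sets on each array. The platform table gave 1 gene symbol for 2917 probe sets, several for 20 and none for 2062, so mug or meu genes among the unnamed probe sets were not counted. One probe set that the table assigns to both meu1-1 and meu1-2 was left out too. RefSeq (assembly ASM294v3) held all 133 genes, 26 of them under another symbol today. The platform's names are kept, and the newer symbol is given where it says what the protein does.

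Polyadenylated RNA of Schizosaccharomyces pombe was hybridised to Affymetrix arrays, which report an mRNA by a set of short probes. The cultures were either fcp1-452 cells, a strain with a temperature-sensitive allele of fcp1, or cells of the wild-type strain L972 (WT). Fcp1 is a phosphatase that takes phosphate off the tail of the large subunit of RNA polymerase II. Each strain was kept in the minimal medium EMM2 without nitrogen (-N) or with it (+N), at 37 or 26 °C, which gives 8 groups: fcp1-452 -N 37, fcp1-452 -N 26, WT -N 37, WT -N 26, fcp1-452 +N 37, fcp1-452 +N 26, WT +N 37 and WT +N 26. There were 16 arrays in 2 sets, the first with 1 array of each group and the second with replicates 1 and 2 of the groups with nitrogen. The sources used here do not state how long the cells were starved or kept at 37 °C, the mating type of the mutant or the number of isolates of each strain. The series is titled as a study of cellular quiescence, and its design text names strain, nitrogen and temperature as the variables.

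When nitrogen runs out, fission yeast cells stop growing in G1. Cells of opposite mating type can then conjugate and go through meiosis and spore formation, while cells without a partner enter a long-lived quiescent state. The transcription factor Ste11 starts this programme, the RNA-binding protein Mei2 commits the cell to meiosis, and the forkhead factor Mei4 drives a later wave of genes. In growing cells many meiotic transcripts are removed by a dedicated RNA elimination system. The names come from screens of meiotic cells: mug stands for meiotically upregulated gene and meu for meiotic expression upregulated. A shared name thus records when a gene was found to be expressed and not what its protein does. The genes range from parts of meiotic chromosomes and of the spore wall to permeases, autophagy proteins and ribosome quality control factors. Strain L972 is a standard strain of a single mating type, so its cells are not expected to conjugate among themselves.

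In each +N group, the array of set 1 and replicate 1 of set 2 differed by far less than replicates 1 and 2 did. For the 133 genes the SD of the log2 difference was 0.0909 to 0.115 between the near-duplicates and 0.233 to 0.469 against replicate 2. They were therefore averaged and counted as 1 sample, leaving 12 samples: 1 in each -N group and 2 in each +N group. Values below are log2 ratios in which 0 is the probe set's own median over the 8 arrays of set 2, all with nitrogen. A gene's samples can be compared with each other, and levels of different genes cannot. Markers of the mating types did not follow nitrogen alone. The P-cell gene map2 stood at 1.85 in fcp1-452 -N 37 and 6.57 in fcp1-452 -N 26, against 0.28 in WT -N 37 and -0.33 in WT -N 26. The M-cell receptor gene mam2 stood at 0.07 and -0.37 in fcp1-452 -N 37 and 26, against 1.22 and 4.45 in WT -N 37 and 26. Other markers were less cleanly divided. A probe set of the M-factor gene mfm1 stood at 1.95 and 4.36 in fcp1-452 -N 37 and 26, against 6.09 and 8.23 in WT -N 37 and 26. The P-cell gene map1 stood at 0.80 and 2.04 in fcp1-452 -N 37 and 26, against 1.68 and 2.21 in WT -N 37 and 26. All 7 probe sets of 5 M-cell genes were lower in starved fcp1-452 than in starved WT (limma, adjusted p under 0.05), and of 3 P-cell genes 2 were higher and 0 lower. Strain and mating type therefore cannot be told apart in any strain difference below. Among the WT samples with nitrogen, the M-factor gene mfm2 stood at 5.15 and 5.24 in replicate 1 at 37 and 26 °C and at 0.40 and -0.02 in replicate 2, so the replicates differed in this marker as well. The sample fcp1-452 -N 37 held the highest value of 43 of the 133 genes and the lowest of 27. Total counts of calls among the 133 genes that rest on it are also given without it. Counts at 2-fold or more are not. On starvation 22 genes were at least 2-fold higher, and 22 at least 2-fold lower, in fcp1-452 at 37 °C alone. The fcp1 transcript itself, for which the labels describe an allele and no change of amount, differed by -0.24 between fcp1-452 and WT at 37 °C with nitrogen.

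**Figure D1:**
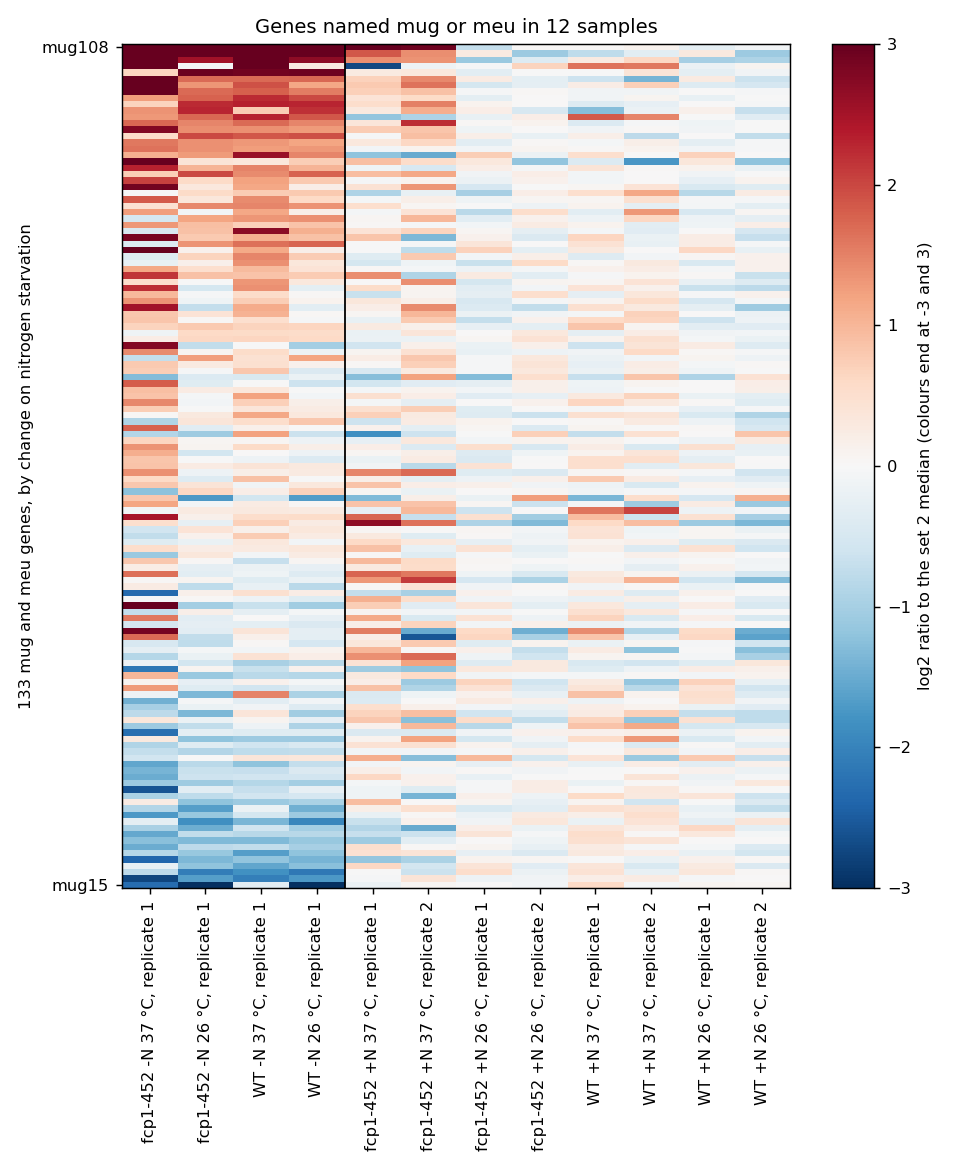
Log2 ratios of the 133 genes (rows, ordered by their change on starvation) in the 12 samples (columns), with colours ending at -3 and 3 and a black line between -N and +N samples. The top rows are mostly red and the bottom rows mostly blue across the 4 -N samples, though the last row, mug15, is pale in WT -N 37. The left column (fcp1-452 -N 37) holds the most extreme values of 43 genes at the high end and 27 at the low end. Both fcp1-452 +N 37 columns carry red in some of the top rows.

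Nitrogen starvation, averaged over both strains and both temperatures, raised 56 of the 133 genes and lowered 41 (limma with Benjamini-Hochberg adjustment over 4999 probe sets, called at an adjusted p under 0.05). That is 42.1% and 30.8% of them, where 33.9% and 38.2% of all probe sets were called higher and lower. At 2-fold or more, 27 rose and 14 fell, or 20.3% and 10.5%, against 12.8% and 13.4% of all probe sets. The median difference was 0.15 for the 133 genes and -0.03 for all probe sets, and the first was 0.27 without the replicate block and 0.04 with quantile normalization. Genes with meiotic names were thus found on both sides. The mug genes rose in 47 and fell in 38 of 115 cases, and the meu genes rose in 9 and fell in 3 of 18. Each -N group had 1 array, so these tests borrowed the spread of the +N groups, and the replicate block set the starved samples against replicate 1 with nitrogen only. Without the fcp1-452 -N 37 array the counts were 49 higher and 39 lower, and with quantile normalization 25 higher and 22 lower. For these and the other alternative fits below, the share of all probe sets called is not given.

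**Figure D2:**
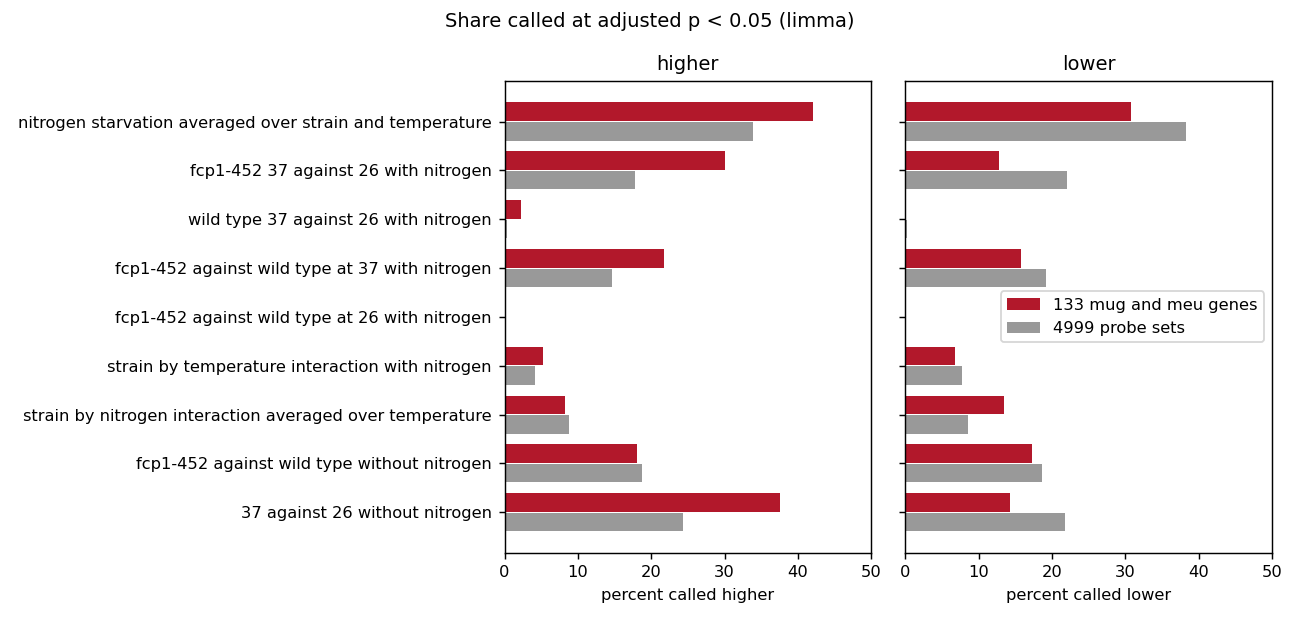
Percent of the 133 mug and meu genes (red bars) and of all 4999 probe sets (grey bars) called higher (left) or lower (right) at an adjusted p under 0.05 in each of the 9 comparisons. Among the 133 genes the share called higher is 42.1% for starvation, 30.1% for fcp1-452 at 37 °C with nitrogen and 37.6% for temperature without nitrogen, each longer than its grey bar, and no gene is called between the strains at 26 °C with nitrogen.

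Among these genes mug108, for which no role was listed, rose most. Its log2 ratio was 6.44 and 4.55 in fcp1-452 -N 37 and 26 and 5.66 and 4.73 in WT -N 37 and 26. With nitrogen it was 3.62 and 2.92 in the fcp1-452 samples at 37 °C and between -0.71 and 0.10 in the other 6. The starved samples all lay above all samples with nitrogen, and the fcp1-452 samples at 37 °C lay between the starved and the remaining ones. The starvation difference was 4.68 ± 0.23 (SE; adjusted p = 3.78e-05, limma). For mug147 the 4 starved samples lay close together, at 3.53 and 3.70 in fcp1-452 -N 37 and 26 and 3.66 and 3.63 in WT -N 37 and 26. Its samples with nitrogen ranged from -1.09 to 1.87, and the difference was 3.21 ± 0.32. The amino acid permease gene meu22 stood at 3.24 and 2.53 in fcp1-452 -N 37 and 26 and at 3.55 and 2.69 in WT -N 37 and 26. With nitrogen meu22 reached at most 1.40, and its difference was 3.11 ± 0.14. Permeases of this family bring amino acids into the cell.

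Of the remaining large rises, several reached like values in 3 of the 4 starved samples. The aldehyde dehydrogenase gene meu8 (now atd3) stood at 0.64 and 2.94 in fcp1-452 -N 37 and 26, 2.90 and 2.93 in WT -N 37 and 26, and at most 0.39 with nitrogen. Its averaged difference was 2.44 ± 0.09 (limma, adjusted p = 2.5e-05), and the fcp1-452 -N 37 sample was the exception among the starved ones. The sorting nexin gene mug186 (snx41) stood at 3.55 and 1.69 in fcp1-452 -N 37 and 26 and at 1.80 and 1.53 in WT -N 37 and 26, all above its samples with nitrogen. It rose by 2.00 ± 0.07, and mug185 (epr1), the gene of a receptor for autophagy of the endoplasmic reticulum, rose by 2.02 ± 0.16. For mug185 the groups overlapped, since 1 fcp1-452 sample at 37 °C with nitrogen reached 1.64 and the starved samples at 26 °C stood at 1.34 in fcp1-452 and 1.15 in WT. Rises of mug8 (2.12 ± 0.28), mug168 (1.86 ± 0.07) and mug191 (1.82 ± 0.20) completed the list, with mug14. That last gene had an averaged difference of 2.68 ± 0.43 (limma, adjusted p = 0.0021) that came from the 37 °C arrays: 4.85 and -0.06 in fcp1-452 -N 37 and 26 and 4.36 and 0.26 in WT -N 37 and 26.

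The largest falls on starvation were those of mug15, mug151 and meu29. mug15 stood at -2.28 and -3.17 in fcp1-452 -N 37 and 26 and at -0.31 and -3.16 in WT -N 37 and 26, against -0.19 to 0.59 with nitrogen. It fell by 2.35 on the log2 scale (SE 0.15), and its WT -N 37 sample lay close to the samples with nitrogen. mug151 was the more even of these, at -2.76 and -1.64 in fcp1-452 -N 37 and 26 and -2.05 and -1.73 in WT -N 37 and 26, against -0.16 to 0.39 with nitrogen, a difference of -2.04 ± 0.09. meu29 had a difference of -2.03 ± 0.09. Smaller falls included mug176 (-1.47 ± 0.10), mug64 (-1.34 ± 0.09), mug111 (-1.29), mug129 (-1.20), mug162 (-1.12), mug69 (-1.12) and mug115 (-1.09). mug69 (now snd2) serves the targeting of proteins to the endoplasmic reticulum.

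Single arrays of set 1 gave the starvation difference within each strain and temperature, with no test. In fcp1-452, 42 of the 133 genes were at least 2-fold higher and 29 at least 2-fold lower at 37 °C, or 31.6% and 21.8%, against 20.6% and 18.8% of all probe sets. At 26 °C the same strain had 22 higher and 18 lower, or 16.5% and 13.5%, against 12.9% and 15.5% of all probe sets. In WT, 32 were higher and 14 lower at 37 °C (13.9% and 14.7% of all probe sets), and 26 higher and 14 lower at 26 °C (12.6% and 14.3%). Another 34 genes, or 25.6%, reached 2-fold in no condition, against 43.8% of all probe sets.

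In all 4 conditions 11 genes were at least 2-fold higher, or 8.27%, against 5.88% of all probe sets: mug108, mug147, meu22, mug186, mug185, mug8, mug33, mug143, mug81, mug56 and mug190. In this group mug33 belongs to cell polarity, mug81 (rqt2) to ribosome quality control, and mug190 (tcb2) to contacts between the endoplasmic reticulum and the plasma membrane. mug33 was 1.98 and 1.50 higher without nitrogen in fcp1-452 at 37 and 26 °C and 1.48 and 1.42 higher in WT at 37 and 26 °C. mug81 was 1.27 and 1.70 higher in fcp1-452 at 37 and 26 °C and 1.35 and 1.47 higher in WT at 37 and 26 °C. Only mug151 and mug64 were at least 2-fold lower in all 4 conditions, or 1.5%, against 5.22% of all probe sets. Directions also clashed: mug89, mug150, mug166, mug180, meu7 and mug153 were at least 2-fold higher in one condition or more and at least 2-fold lower in another. For all of them but mug150, the rise or the fall of 2-fold was seen in fcp1-452 at 37 °C alone, on a single -N array. How many of all probe sets clashed in this way was not counted. mug89, for example, was at 2.32 in fcp1-452 at 37 °C and at -1.36 at 26 °C, against -0.98 and -1.27 in WT at 37 and 26 °C. These differences are taken against near-duplicates of replicate 1. On average with nitrogen, replicate 1 differed from replicate 2 by 1.93 for mug166, -1.61 for meu7, -0.97 for mug150 and 0.75 for mug89. For these genes the 2-fold clash may depend on the replicate used.

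**Figure D3:**
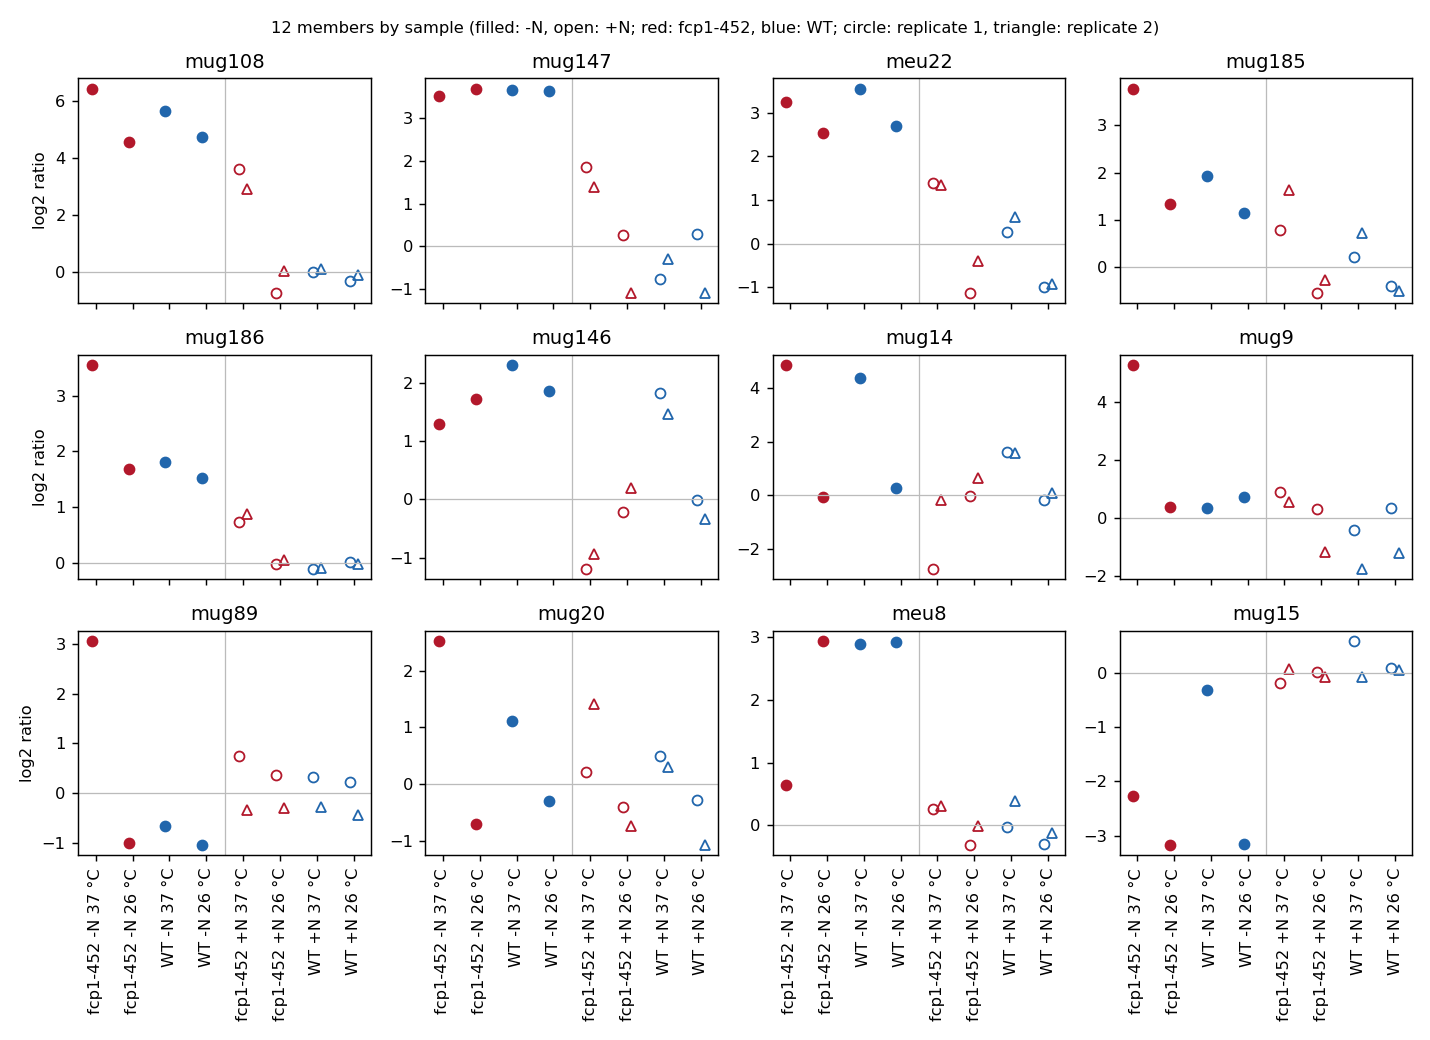
Log2 ratio of 12 of the genes in every sample, with fcp1-452 in red, WT in blue, filled symbols without nitrogen, open symbols with nitrogen, circles for replicate 1 and triangles for replicate 2. mug108 is at 4.55 or more in the 4 starved samples and at 3.62 and 2.92 in fcp1-452 at 37 °C with nitrogen, mug146 is at 1.83 and 1.46 in WT at 37 °C with nitrogen and at -1.19 and -0.93 in fcp1-452, and mug9 and mug89 stand out in fcp1-452 -N 37 alone.

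With nitrogen, the shift of fcp1-452 to 37 °C, set against 26 °C, raised 40 of the 133 genes and lowered 17 (limma, adjusted p under 0.05). That is 30.1% and 12.8%, against 17.8% and 22.1% of all probe sets, so calls were more often higher than lower among the 133 and more often lower than higher over all probe sets. The count at 2-fold or more was 15 higher and 7 lower (11.3% and 5.26%, against 4.06% and 7.5% of all probe sets). The median difference was 0.26 for the 133 genes and -0.04 for all probe sets. Both replicates at 37 °C lay above both at 26 °C for 52 genes (39.1%, against 24.4% of all probe sets) and below for 20 (15%, against 27.7%). In both replicates 10 genes were at least 2-fold higher (7.52%, against 2.76%) and 6 at least 2-fold lower (4.51%, against 5.08%). The number of calls depended on the samples at 26 °C and on the block. It was 23 without fcp1-452 +N 26 replicate 1, 17 without fcp1-452 +N 26 replicate 2, 34 without replicate 2 of both WT groups, and 19 (15 higher and 4 lower) without the replicate block. With quantile normalization 33 rose and 5 fell.

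mug108 rose most here as well, by 3.61 ± 0.32 (limma, adjusted p = 0.00196), with 3.62 and 2.92 at 37 °C, against -0.71 and 0.04 at 26 °C. Next was mug180 (say1), the gene of a sterol deacetylase, which stood at 2.68 and 1.63 in fcp1-452 at 37 °C, against -0.92 and -1.33 in fcp1-452 at 26 °C, a rise of 3.28 ± 0.30. The gene mug35 stood at 1.30 and 2.09 at 37 °C, against -0.49 and -0.94 at 26 °C, and rose by 2.41 ± 0.40. Replicates of these genes did not overlap between the temperatures. The permease gene meu22 rose by 2.14 ± 0.20 and mug147 by 2.05 ± 0.45. meu1-1 rose by 1.98 ± 0.19, and a further probe set shared by meu1-1 and meu1-2, left out of the 133, had a difference of 3.80. A tight pair of replicates was seen for mug51, at 1.75 and 1.58 at 37 °C, against -0.14 and -0.46 at 26 °C, which rose by 1.97 ± 0.10 (limma, adjusted p = 0.000916). mug1 (jnm1), a subunit of dynactin, which works with the motor dynein, rose by 1.90 ± 0.29. mug185 rose by 1.62 ± 0.23 and mug126 by 1.24 ± 0.14.

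Among the falls of the same comparison, mug124 stood at -1.20 and -1.50 in fcp1-452 at 37 °C, against 0.74 and -0.16 at 26 °C, a difference of -1.64 ± 0.16. mug161, whose product resembles the splicing-related protein Cwf19, stood at -1.06 and -1.20 at 37 °C, against 0.32 and 0.30 at 26 °C, a difference of -1.44 ± 0.12. mug150 differed by -1.57 ± 0.16, with replicates at -1.83 and -0.63 at 37 °C, against -0.02 and 0.70 at 26 °C. The alpha-amylase homolog gene meu7 differed by -1.10 ± 0.14, and mug146 by -1.05. mug115 (-1.19), mug64 (-1.13), mug65 (-0.90), mug69 (-0.85) and mug113 (-0.68) were the other falls by size. The most negative of all, mug14 at -1.75, was not called: its replicates at 37 °C were -2.72 and -0.15.

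The same temperature shift in WT called 3 of the 133 genes, all higher, or 2.26%, and 0 lower, against 0.32% and 0.22% of all probe sets. At an unadjusted p under 0.05 there were 38, or 28.6%, against 20.6% of all probe sets. The genes called were mug146 (1.82 ± 0.22, limma adjusted p = 0.0454), mug126 (1.21 ± 0.14) and mug133 (1.12 ± 0.13). mug146 stood at 1.83 and 1.46 in WT at 37 °C, against -0.00 and -0.33 at 26 °C. The sterol deacetylase gene mug180 had a larger difference of 1.99 ± 0.30 and missed the threshold (limma, adjusted p = 0.0543), with 0.60 and 0.93 in WT at 37 °C, against -1.09 and -1.35 at 26 °C. In both replicates 7 genes were at least 2-fold higher at 37 °C, or 5.26%, against 0.92% of all probe sets. The median difference was 0.15 for the 133 genes and 0.01 for all probe sets. For the 133 it was 0.24 without WT +N 26 replicate 1, 0.096 without WT +N 26 replicate 2 and 0.23 with quantile normalization. The count of calls was unsteady: 0 without the block, 0 without any single WT sample with nitrogen, without either fcp1-452 +N 26 sample or without replicate 2 of both WT groups, 32 without either fcp1-452 +N 37 sample, 21 with all 16 arrays, 28 with quantile normalization and 7 with a pseudocount of 0.1.

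Between the strains with nitrogen, no gene of the 133 was called at 26 °C, and 1 of them, or 0.752%, reached an unadjusted p under 0.05 (limma), against 0.38% of all probe sets. All groups shared an estimate of the spread. Over all probe sets the SD of set 1 against replicate 2 was 0.214 and 0.224 in fcp1-452 and WT at 26 °C, and 0.381 in fcp1-452 at 37 °C. The lack of calls at 26 °C therefore does not show that the strains were alike there. At 37 °C, 29 were higher in fcp1-452 and 21 lower, or 21.8% and 15.8%, against 14.7% and 19.2% of all probe sets. mug108 led the genes higher in fcp1-452, at 3.62 and 2.92 in fcp1-452 and 0.03 and 0.10 in WT, a difference of 3.21 ± 0.32 (limma, adjusted p = 0.00312). It was followed by mug147 (2.17 ± 0.45), mug8 (2.07 ± 0.40), mug9 (1.81 ± 0.30), meu1-1 (1.53 ± 0.19), mug143 (1.52 ± 0.44), mug51 (1.48 ± 0.10), mug1 (1.46), mug10 (1.41) and mug180 (1.39). Replicates of mug143 in fcp1-452 stood apart, at 0.36 and 2.22. On the lower side mug146 stood at -1.19 and -0.93 in fcp1-452 and at 1.83 and 1.46 in WT, a difference of -2.70 ± 0.22 (limma, adjusted p = 0.00244). mug14 differed by -3.04 ± 0.60, with -2.72 and -0.15 in fcp1-452 and 1.63 and 1.58 in WT. Others lower in fcp1-452 were mug124 (-1.60), mug115 (-1.48), mug166 (-1.47), mug125 (-1.45), mug130 (-1.42), mug184 (-1.20), mug162 (-1.12) and mug150 (-1.11). Both comparisons at 37 °C use the same fcp1-452 samples, so their agreement is not counted as a second result. Without WT +N 37 replicate 1 or replicate 2 the calls were 17 and 18, without replicate 2 of both WT groups 9, without the block 10, and with quantile normalization 25.

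The strain by temperature interaction asks whether the shift differed between the strains. It called 7 genes with a more positive shift in fcp1-452 and 9 with a more negative one, or 5.26% and 6.77%, against 4.12% and 7.68% of all probe sets. mug108 (3.35 ± 0.45), meu1-1 (1.62 ± 0.27) and mug51 (1.43 ± 0.14) were the largest positive ones, and mug170, mug186, mug33 and mug135 were below 2-fold. mug146 was the largest negative one, at -2.87 ± 0.32 (limma, adjusted p = 0.0151): its shift was downward in fcp1-452 and upward in WT. mug124 (-1.53), mug115 (-1.31), mug130 (-1.30) and mug150 (-1.03) were also past 2-fold. For mug180 and mug35, among the largest rises in fcp1-452, the interaction was not called. The count rested on the samples: 0 without either fcp1-452 +N 26 sample or either WT +N 26 sample, 1 without either WT +N 37 sample or without replicate 2 of both WT groups, 45 and 31 without fcp1-452 +N 37 replicate 1 and replicate 2, 30 with 16 arrays, and 0 without the block or with quantile normalization.

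Starvation of WT and the shift of fcp1-452 with nitrogen were measured on different arrays, so their gene lists could be set side by side. At both temperatures 21 genes were at least 2-fold higher in starved WT (15.8%, against 9.56% of all probe sets). Of these 21, 12 were also called higher in fcp1-452 at 37 °C with nitrogen, and 0 were called lower. The 12 are 57.1% of the first list and 30% of the 40 genes of the second, where over all probe sets the overlap of 146 is 30.5% and 16.4% of the lists. mug108, mug147, meu22, mug185, mug186, mug33 and mug81 were among them. The shift of WT with nitrogen was not set against these lists. In WT replicates 1 and 2, meu22 rose by 1.26 and 1.54 at 37 °C and mug185 by 0.60 and 1.23, so their rise was not confined to fcp1-452. The other genes just named differed by -1.06 to 0.78 in the WT replicates. For all probe sets, 15.5% of those higher in starved WT were called lower in fcp1-452. On the other side 8 genes were at least 2-fold lower in starved WT at both temperatures (6.02%, against 10.1% of all probe sets), and 5 of these were called lower in fcp1-452 at 37 °C, among them mug64, mug69 and mug115. That is 62.5% of the 8 and 29.4% of the 17, against 33.7% and 15.4% for all probe sets. The sizes differed: mug108 stood at 3.62 and 2.92 in fcp1-452 at 37 °C, below all of its starved values, and mug180, mug35 and mug51 were high in fcp1-452 at 37 °C and not at least 2-fold higher in starved WT at both temperatures.

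**Figure D4:**
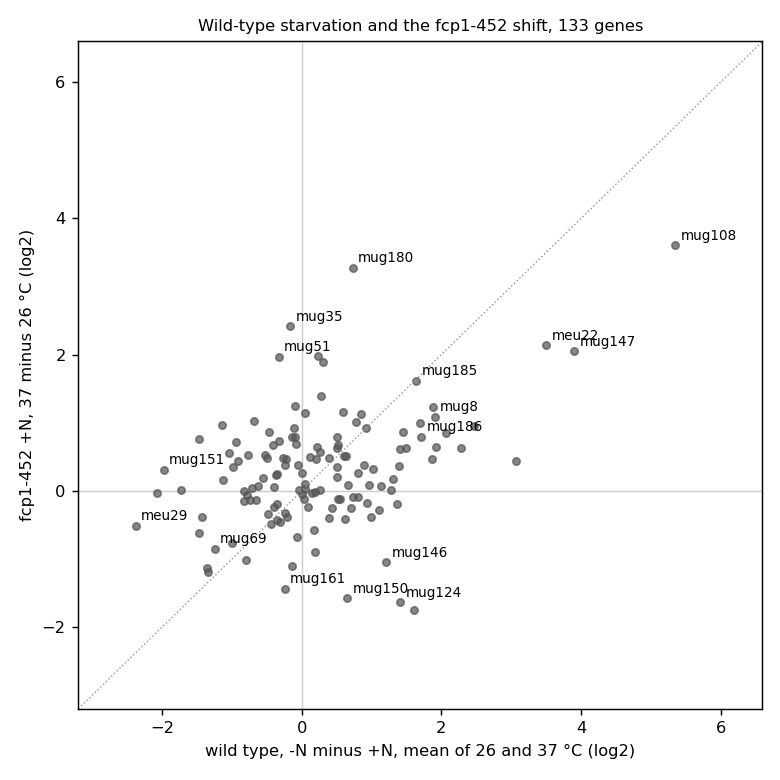
Each point is 1 of the 133 genes. The horizontal axis is the log2 difference -N minus +N in WT, averaged over 37 and 26 °C from single arrays, and the vertical axis is the log2 difference 37 minus 26 °C in fcp1-452 with nitrogen, with a dotted line where both are equal. mug108, mug147 and meu22 lie at the upper right, mug180, mug35 and mug51 are high on the vertical axis only, and mug146, mug124 and mug150 lie below 0 on the vertical axis.

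Among starved cells the strains were close at 26 °C and far apart at 37 °C, on 1 array a group and with no test. At 26 °C 0 of the 133 genes differed by 2-fold or more between fcp1-452 and WT, and the SD of the differences was 0.206, against 0.304 for all probe sets. At 37 °C 30 genes were at least 2-fold higher in fcp1-452 and 29 at least 2-fold lower, or 22.6% and 21.8%, against 17% and 17.5% of all probe sets, and the SD was 1.31. mug9 stood at 5.26 in fcp1-452 -N 37 and 0.35 in WT -N 37, and at 0.38 and 0.73 in fcp1-452 and WT at 26 °C. mug89 stood at 3.06 in fcp1-452 -N 37 and -0.66 in WT -N 37, and at -1.01 and -1.05 in fcp1-452 and WT at 26 °C. meu8 was lower in fcp1-452 -N 37, at 0.64 against 2.90 in WT -N 37, where the strains at 26 °C stood at 2.94 and 2.93. In each of these genes 1 sample stood apart from the other starved samples.

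Averaged over both temperatures, limma called 24 of the 133 genes higher and 23 lower in starved fcp1-452, or 18% and 17.3%, near the 18.8% and 18.6% of all probe sets. mug9 (2.28 ± 0.30), mug89 (1.88 ± 0.15), mug153 (1.53 ± 0.38) and mug80 (1.21 ± 0.25), the gene of the cyclin-like protein Clg1, were the largest on the higher side. mug45 (-1.68 ± 0.20), mug65 (-1.45 ± 0.15), mug150 (-1.26 ± 0.16), mug179 (-1.23 ± 0.17) and meu8 (-1.12 ± 0.12) were the largest on the lower. mug179 (atg1802) is a gene of the Atg18 family, whose proteins act in autophagy. The strain by nitrogen interaction called 11 with a more positive starvation difference in fcp1-452 and 18 with a more negative one, or 8.27% and 13.5%, against 8.84% and 8.54% of all probe sets. Both counts were 0 without the fcp1-452 -N 37 array and with quantile normalization. Without the block the strain difference was called in 12 genes and the interaction in 0. The strain difference was called in 21 genes without replicate 2 of both WT groups and in 73 without either fcp1-452 +N 37 sample. Samples with nitrogen do not enter the strain difference, so only the borrowed spread changed there. The interaction was called in 0 without either fcp1-452 +N 26 sample, without WT +N 26 replicate 2 or without replicate 2 of both WT groups, in 3 without WT +N 26 replicate 1, in 7 and 6 without WT +N 37 replicate 1 and replicate 2, and in 64 and 54 without fcp1-452 +N 37 replicate 1 and replicate 2.

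Temperature in starved cells, averaged over the strains, raised 50 of the 133 genes and lowered 19, or 37.6% and 14.3%, against 24.3% and 21.8% of all probe sets (limma, adjusted p under 0.05). At 2-fold or more 32 rose and 6 fell (24.1% and 4.51%, against 8.32% and 5.92% of all probe sets). The median difference was 0.34 for the 133 genes and 0.03 for all probe sets. For the 133 it was 0.14 with quantile normalization and 0.21 on the single WT arrays. Only 7 genes, all higher, were called without the fcp1-452 -N 37 array, which leaves the temperature difference of WT: mug15, meu10, mug150, meu15, mug45, mug126 and meu7. Without the block 39 were called, and with quantile normalization 0. With no share of all probe sets beside them, these counts do not show whether the 133 genes still differed from all probe sets. Single arrays showed how unequal the strains were. In fcp1-452 42 genes were at least 2-fold higher at 37 °C and 19 lower (31.6% and 14.3%, against 19.1% and 17.1% of all probe sets). In WT 16 were higher and 1 lower (12% and 0.752%, against 4.08% and 1.68%). In both strains 6 genes were at least 2-fold higher, or 4.51%, against 2.28% of all probe sets: mug14, mug20, meu15, meu7, mug153 and meu10. In both strains 0 were at least 2-fold lower, against 0.88%.

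mug14 had the largest rise at 37 °C in both strains, 4.91 in fcp1-452 and 4.10 in WT. Its averaged difference was 4.51 ± 0.60 (limma, adjusted p = 0.00319), and it was not among the genes called without the fcp1-452 -N 37 array. mug20, a component of the linear elements that organise meiotic chromosomes, was 3.24 higher in fcp1-452 and 1.42 higher in WT, and rose by 2.33 ± 0.45. meu15 was 2.75 higher in fcp1-452 and 1.67 higher in WT, and meu7 2.53 and 1.13 higher in fcp1-452 and WT. For mug153 the single-array differences were 3.48 in fcp1-452 and 1.01 in WT. mug9, mug89, mug106 and mug80 rose on average by 2.25, 2.23, 2.16 and 1.92, but their single-array differences in WT were -0.38, 0.38, 0.97 and 0.66. The spore wall gene meu10 differed by 1.20 in fcp1-452 and 2.45 in WT, and mug15 by 0.90 in fcp1-452 and 2.85 in WT, so both had the larger single-array difference in WT. On the lower side mug161 (-1.51 ± 0.12), the histone chaperone gene mug183 (rtt106; -1.36 ± 0.16), mug98 (-1.34), meu34 (-1.18), meu8 (-1.16), mug65 (-1.13), mug71 (-0.98), mug179 (-0.91), mug164 (-0.90) and mug4 (-0.89) were the 10 largest falls. mug164 (mmb1) links mitochondria to microtubules.

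**Figure D5:**
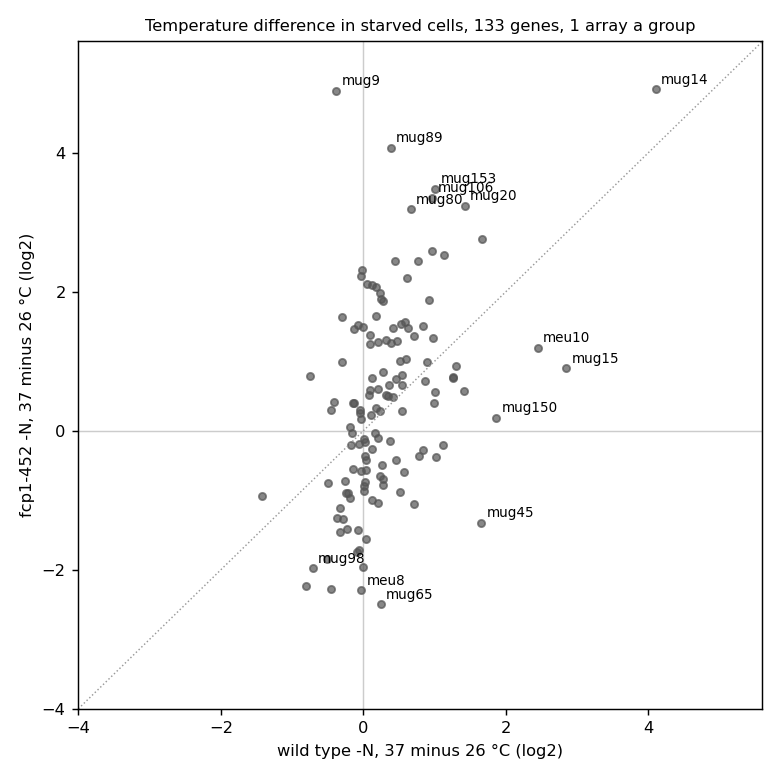
Each point is 1 of the 133 genes, with the log2 difference 37 minus 26 °C without nitrogen in WT on the horizontal axis and in fcp1-452 on the vertical axis, 1 array a group, and a dotted line where both are equal. mug14 lies at 4.91 in fcp1-452 and 4.10 in WT, most points spread along the vertical axis, and mug15, meu10, mug150 and mug45 lie further along the WT axis.

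A role was listed for 35 of the 133 genes, from textbook knowledge, in 6 groups. On starvation 33.9% of all probe sets were called higher and 38.2% lower, and a count in a group of 4 to 8 genes is a description that does not set the group apart. Of 8 genes of chromosomes and RNA, 2 rose and 3 fell on starvation. mug55 (fzr3), an activator of the anaphase-promoting complex, rose by 0.43 ± 0.07 and mug152 (teb1), a Myb-like DNA-binding protein, by 0.94 ± 0.27. The falls were mug183 (-0.93 ± 0.11), the nuclear rim protein gene mug154 (nur1; -0.52 ± 0.08) and mug161 (-0.43 ± 0.08). Without the fcp1-452 -N 37 array mug152 (0.40), mug154 (-0.22) and mug161 (-0.24) were not called. Of the 4 spore genes, 2 rose on starvation, both by under 2-fold: meu14, of the leading edge of the forespore membrane, by 0.47 ± 0.12 and the kinase gene mug27 (slk1) by 0.61 ± 0.21. meu14 had 0.29 without the fcp1-452 -N 37 array and was not called. At 37 °C without nitrogen 3 of those 4 rose, meu10 by 1.82 ± 0.29, meu14 by 1.01 ± 0.16 and the RNA-binding protein gene mug28 by 0.91 ± 0.12, where 24.3% of all probe sets rose. Only meu10 of these 4 was called without the fcp1-452 -N 37 array. Of the 5 genes of autophagy and quiescence, 3 rose on starvation and 0 fell: mug185, mug186 and mug179 (0.83 ± 0.12). The autophagy kinase subunit gene mug66 (atg101) had 0.03 ± 0.18, and mug134 (igo1), an inhibitor of a form of the phosphatase PP2A, 0.20 ± 0.09, neither called. With nitrogen, replicate 1 lay above replicate 2 on average, by 1.73 for mug66 and 0.73 for mug134. The starvation differences of mug66 and mug134 are taken against replicate 1 and would be larger against replicate 2. Both rose at 37 °C without nitrogen, by 1.14 ± 0.25 and 0.82 ± 0.13, with the fcp1-452 -N 37 sample at 2.47 for mug66 and 1.34 for mug134, against 0.53 and 0.57 in WT -N 37. Without the fcp1-452 -N 37 array neither was called, at -0.019 for mug66 and 0.38 for mug134.

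Metabolism and transport held 8 genes, of which 3 rose and 2 fell on starvation. Besides meu8 and meu22, the ergothioneine synthesis gene mug158 (egt1) rose by 0.82 ± 0.19. The falls were mug71 (dph6), of diphthamide synthesis, at -0.67 ± 0.08 and the acetate transporter family gene mug86 at -0.48 ± 0.10. With nitrogen, replicate 1 of mug86 lay 1.22 above replicate 2 on average. Its fall is taken against replicate 1, and against replicate 2 it would turn into a rise. In fcp1-452 at 37 °C with nitrogen 4 of this group rose and 3 fell, among them the glucoamylase homolog gene meu17, which rose by 0.93 ± 0.23. Of all probe sets 17.8% rose and 22.1% fell there. Of 5 genes of membranes and cell structure, mug33 (1.59 ± 0.07) and mug190 (1.81 ± 0.36) rose on starvation and mug69 fell. Of 5 genes of protein synthesis and turnover, mug81 rose by 1.45 ± 0.07 and 3 fell: the ubiquitin ligase gene mug30 (-0.88 ± 0.15), mug67 (sdu1; -0.52 ± 0.16) and the deubiquitinating enzyme gene mug105 (-0.46 ± 0.08). mug67 had -0.27 without the fcp1-452 -N 37 array and was not called. The 98 genes with no role listed held 43 rises and 32 falls on starvation. Chromosomal neighbours in RefSeq order were few among the 133, in the runs mug177 and mug58, mug116 and mug86, mug66, mug105 and meu29, mug57 and mug97, and mug163 and mug55. In the run of 3 the starvation differences were 0.03 for mug66, -0.46 for mug105 and -2.03 for meu29.

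Other genes of the meiotic pathway were listed for comparison. Of all probe sets, 33.9% rose and 38.2% fell on starvation, 17.8% rose and 22.1% fell in fcp1-452 at 37 °C with nitrogen, and 24.3% rose and 21.8% fell at 37 °C without nitrogen. Of 23 measured regulators, 16 rose and 2 fell on starvation, 4 rose and 2 fell in fcp1-452 at 37 °C with nitrogen, and 11 rose and 2 fell at 37 °C without nitrogen. That is 69.6% and 8.7% for starvation, 17.4% and 8.7% for the fcp1-452 shift, and 47.8% and 8.7% for temperature without nitrogen. For the genes listed here, the counts for temperature without nitrogen include the fcp1-452 -N 37 array and are not given without it. mei2 stood at 2.97 and 5.34 in fcp1-452 -N 37 and 26 and at 3.60 and 5.21 in WT -N 37 and 26, and ste11 at 0.84 and 2.87 in fcp1-452 -N 37 and 26 and 0.95 and 2.99 in WT -N 37 and 26. Both were thus lower at 37 than at 26 °C in starved cells of both strains. mei4 ran the other way, at 4.84 and 1.65 in fcp1-452 -N 37 and 26 and 2.99 and 1.81 in WT -N 37 and 26. Its samples with nitrogen reached at most 0.86. With nitrogen ste11 stood at 0.93 and 0.43 in fcp1-452 at 37 °C, so its value in fcp1-452 -N 37 did not lie above all samples with nitrogen. Of 22 spore formation genes, 12 rose and 5 fell on starvation (54.5% and 22.7%), and 3 rose and 4 fell in fcp1-452 at 37 °C with nitrogen (13.6% and 18.2%). At 37 °C without nitrogen 6 of them rose and 4 fell (27.3% and 18.2%), near the shares of all probe sets. Of 26 probe sets of meiotic chromosome genes, 8 rose and 5 fell on starvation (30.8% and 19.2%). At 37 °C without nitrogen 7 rose and 5 fell (26.9% and 19.2%), also near the shares of all probe sets. In fcp1-452 at 37 °C with nitrogen 9 rose and 1 fell (34.6% and 3.85%). That list includes meu13. Those 9 included hop1 (2.35 ± 0.33), a component of the linear elements, and mcp7 (2.12 ± 0.25), which acts in meiotic recombination. In WT with nitrogen hop1 stood at 0.51 and 0.94 at 37 °C, against -0.76 and -1.23 at 26 °C. Its rise was thus not confined to fcp1-452, although 0 genes of this list were called for the WT shift. mcp7 stood at 0.16 and -0.18 in WT at 37 °C, against 0.03 and -0.96 at 26 °C.

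Replicates 1 and 2 of the +N groups differed beyond 2-fold on average for 12 of the 133 genes, or 9.02%, against 6.02% of all probe sets. Replicate 1 was higher for mug80 (2.37), mug166 (1.93), mug66 (1.73), mug57 (1.71) and mug72 (1.61), among others, and lower for mug128 (-1.79) and meu7 (-1.61). The genes named in these sentences and the 6 with no call were chosen after their values were seen. For those with a replicate difference, a starvation difference taken against replicate 2 would differ by that amount. In none of the 9 comparisons was a call made for mug128, mug73, mug174, meu32, mug82 and mug114, or 4.51%, against 9.16% of all probe sets. The coilin-like protein gene mug174 was among them, with a starvation difference of -0.14 ± 0.11.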

How the data were processed

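The authors deposited linear ratios for 4999 probe sets on 16 arrays. The submitters' processing notes name RMA and no version of it. In the deposited ratios every probe set has a median of 1 over the 8 arrays of its set, so no expression level is kept. The lowest ratio, 0.01, occurred in 4 of 79984 values. Signal over background is not known, and the number of arrays limited the precision.

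A linear model of the log2 ratios (limma 3.58.1, R 4.3.3, moderated tests, 3 residual and 2.75 prior degrees of freedom) held 8 group means and a block for the replicate number. Set 1 was aligned with set 2, probe set by probe set, through the mean difference of the 4 near-duplicate pairs (r = 0.975 to 0.990, against 0.652 to 0.765 with replicate 2), which were averaged. Same-numbered replicates deviated together in all 6 pairs of groups (r = 0.640 to 0.870 over all probe sets), so the block was kept. The labels do not name separate cultures for the replicates, and p-values may therefore measure technical spread only. P-values were adjusted by Benjamini-Hochberg over 4999 probe sets and called under 0.05. Tests of starved groups assume that their single arrays vary like the +N groups.

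Named genes were, per comparison, up to 10 called rises and 10 called falls by size, those 2-fold in all 4 conditions, and those with a listed role. The genes, lists and roles were chosen with earlier results of these data known, and map3 and mam1 were moved between the M-cell and P-cell markers after their values were seen. On data simulated for fcp1-452 at 37 against 26 °C (200 of 4999 probe sets changed), 90% of log2 changes of 1 and 100% of 2 were recovered, with 9 false calls. Alternatives were no block, 16 arrays with a set term, quantile normalization, a pseudocount of 0.1 and a filter at a ratio of 0.05 (15 probe sets removed, 1 of them among the 133). Others were leaving out samples with nitrogen and, added after seeing the data, leaving out the fcp1-452 -N 37 array. Sequences were not used here.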

Additional observations from a re-analysis of the deposited data

Results flagged for a closer look

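Interactions of strain with temperature and of strain with nitrogen were tested for every gene, and the genes they called (up to 10 in each direction) are given here as log2 values with fcp1-452 minus WT. In the first, the temperature shift with nitrogen differed between the strains. It was more positive in fcp1-452 for mug108 (3.35), meu1-1 (1.62), mug51 (1.43), mug170 (0.97), mug186 (0.89), mug33 (0.84) and mug135 (0.68). It was more negative in fcp1-452 for mug146 (-2.87), mug124 (-1.53), mug115 (-1.31), mug130 (-1.30), mug150 (-1.03), mug69 (-0.99), mug161 (-0.99), mug64 (-0.95) and mug24 (-0.65). None of these 16 was called without the replicate block or with quantile normalization.

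In the second, the starvation difference averaged over temperature differed between the strains. It was more positive in fcp1-452 for mug89 (1.72), mug106 (1.41), meu6 (1.34), mug80 (1.31), mug112 (0.97), meu29 (0.77), mug5 (0.76), mug16 (0.67), mug24 (0.63) and mug105 (0.59). It was more negative in fcp1-452 for mug45 (-2.12), mug1 (-1.65), mug191 (-1.56), mug4 (-1.22), mug179 (-1.21), meu8 (-1.20), mug65 (-1.06), mug126 (-1.04), mug98 (-0.97) and mug63 (-0.85). None was called without the fcp1-452 -N 37 array, and the part of mating type, which differed with the strain in marker genes, was not tested.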

How the results depend on the processing

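The counts of called genes moved with the fit. Shares of all probe sets called are given for the main fit only. With the replicate block 97, 57, 3, 50, 0, 16, 29, 47 and 69 of the 133 genes were called for starvation, fcp1-452 at 37 against 26 °C, WT at 37 against 26 °C, the strains at 37 °C, the strains at 26 °C, strain by temperature, strain by nitrogen, the strains without nitrogen and temperature without nitrogen. Without the block, in the same order, the counts were 74, 19, 0, 10, 0, 0, 0, 12 and 39. With quantile normalization 47 (25 higher and 22 lower), 38 (33 and 5), 28, 25, 0, 0, 0, 0 and 0 were called. With 16 arrays the WT shift gave 21 and strain by temperature 30, and with a pseudocount of 0.1 the WT shift gave 7. Leaving out 1 sample with nitrogen gave 82 to 107 for starvation, 17 to 70 for the fcp1-452 shift and 0 to 32 for the WT shift. It gave 17 to 61 for the strains at 37 °C, 0 to 0 at 26 °C, 0 to 45 for strain by temperature and 0 to 64 for strain by nitrogen. For the strains and for temperature without nitrogen it gave 36 to 73 and 63 to 90. Those 2 comparisons use -N arrays only, so their differences stayed the same and only the borrowed spread changed. Their ranges therefore do not show how far they rest on single -N arrays. Without replicate 2 of both WT groups the fcp1-452 shift gave 34, the WT shift 0, the strains at 37 °C 9, strain by temperature 1, strain by nitrogen 0 and the strains without nitrogen 21. Called under all 14 settings were 32 of the 97 genes for starvation, 14 of the 57 for the fcp1-452 shift and 4 of the 50 for the strains at 37 °C. These 14 settings do not include leaving out the fcp1-452 -N 37 array. Without the fcp1-452 -N 37 array, an alternative chosen after seeing the data, strain by nitrogen and the strains without nitrogen gave 0 and temperature without nitrogen 7. The sign then turned for 4 of the 97 genes called for starvation, 9 of the 29 for strain by nitrogen, 12 of the 47 between the starved strains and 8 of the 69 for temperature without nitrogen. Among the genes with the largest differences it turned for mug89 (-0.11), mug106 (-0.0402), mug80 (-0.0841), mug16 (-0.40), mug24 (-0.11) and mug105 (-0.16) in strain by nitrogen, for mug9 (-0.36), mug80 (-0.0538), mug106 (-0.0488) and meu8 (0.0110) between the starved strains, and for mug9 (-0.38) and mug65 (0.24) with temperature without nitrogen. By construction this alternative leaves 26 °C for the strains and WT for temperature. The causes of the other changes were not tested.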
